A study of Mus musculus with 10 samples.

Results

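The 10 neuronal immediate early genes Arc, Fos, Fosb, Junb, Egr1, Egr2, Egr3, Egr4, Npas4 and Nr4a1 were examined in the prefrontal cortex of mice that lack 1 working copy of Arid1b. They were found by symbol in the table of 18216 genes, all 10 were present, and all 10 passed the filter on low values that left 16781 genes for testing. The samples were 5 heterozygous (HT, Arid1b+/-) and 5 wild-type (WT) male C57BL/6N mice at postnatal day 10, each giving 1 library of polyadenylated RNA. In HT mice, the offspring of HT fathers and WT mothers, 1 allele of Arid1b, a subunit gene of the BAF chromatin-remodelling complex, carries a protein-truncating change made with Cas9 nickase at exon 5, in the whole animal and not in neurons alone. The comparisons asked whether the level of each gene differed between HT and WT, and how the genes varied together over the 10 mice.

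Immediate early genes are transcribed within minutes of synaptic activity and calcium entry, without the need for new protein, and their transcripts are short-lived. Most encode transcription factors that carry the signal to later genes, whereas Arc encodes a protein of the synapse that promotes removal of AMPA receptors from the postsynaptic membrane. In cortex their level is widely used as a marker of recent neuronal activity. The labels name no stimulus, and the handling of the pups before dissection is not given in the sources used here.

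The promoters are shown first for Fos, Junb, Egr2 and Egr4, which are among the genes that varied together closely, and for Nr4a1, which followed them less closely. Each window holds the 250 bases before a RefSeq transcription start on GRCm38.p6, read 5′ to 3′ along the strand of the gene. Capitals mark TGACG or its complement CGTCA, the core of the cAMP response element bound by CREB, the CArG box bound by SRF, and GCGNGGGCG or its complement, the element bound by EGR factors.
Fos, chr12:85473640-85473889, plus strand: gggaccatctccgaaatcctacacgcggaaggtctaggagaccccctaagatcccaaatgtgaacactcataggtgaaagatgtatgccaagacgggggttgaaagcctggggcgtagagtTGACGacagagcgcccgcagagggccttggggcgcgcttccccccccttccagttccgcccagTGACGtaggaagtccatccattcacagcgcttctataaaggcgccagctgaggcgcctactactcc
Junb, chr8:84978749-84978998, minus strand: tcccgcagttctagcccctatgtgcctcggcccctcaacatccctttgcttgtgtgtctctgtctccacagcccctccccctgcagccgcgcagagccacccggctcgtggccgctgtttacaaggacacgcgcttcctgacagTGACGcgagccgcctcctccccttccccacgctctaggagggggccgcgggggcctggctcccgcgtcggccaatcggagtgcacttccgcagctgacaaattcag
Egr2, chr10:67537619-67537868, plus strand: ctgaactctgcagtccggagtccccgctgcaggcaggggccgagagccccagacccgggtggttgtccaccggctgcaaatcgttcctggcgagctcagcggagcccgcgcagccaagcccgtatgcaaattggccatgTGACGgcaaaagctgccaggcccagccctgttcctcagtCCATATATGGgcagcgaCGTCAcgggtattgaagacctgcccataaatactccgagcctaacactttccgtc
Egr4, chr6:85513590-85513839, minus strand: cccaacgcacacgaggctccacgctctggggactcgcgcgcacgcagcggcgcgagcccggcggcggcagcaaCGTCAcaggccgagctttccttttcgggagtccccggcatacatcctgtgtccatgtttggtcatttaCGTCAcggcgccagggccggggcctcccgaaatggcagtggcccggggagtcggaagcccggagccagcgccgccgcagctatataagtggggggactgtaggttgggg
Nr4a1, chr15:101266596-101266845, plus strand: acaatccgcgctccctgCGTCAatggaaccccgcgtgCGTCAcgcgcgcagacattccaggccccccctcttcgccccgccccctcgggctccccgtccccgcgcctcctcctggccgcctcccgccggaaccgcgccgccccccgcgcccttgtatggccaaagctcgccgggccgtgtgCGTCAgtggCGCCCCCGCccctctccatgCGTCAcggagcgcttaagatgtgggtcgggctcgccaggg

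RefSeq windows were matched for 7 of the 10 genes (Fos, Fosb, Junb, Egr2, Egr4, Npas4 and Nr4a1). TGACG occurred on either strand in at least 1 window of 7 of these 7 genes, against 19.8% of the 27018 genes with a window. Its first base lay 129 and 66 bases before the start in Fos, 106 in Junb, 111 and 55 in the Egr2 window, and 177 and 109 in Egr4. The Nr4a1 window held 4 copies, at 233, 213, 69 and 40 bases before the start. Egr2 had 5 windows, of which 3 held TGACG. The full palindrome TGACGTCA was in none of the 7, against 1.77% of all genes. A CArG box was found for Egr2 alone among the 7, against 1.62% of all genes. GCGNGGGCG was found for Fosb and Nr4a1, against 5.33% of genes, and the AP-1 element TGANTCA for none, against 7.82%. TATAAA was found for Fos alone, against 14.3%. TGACGTCA contains TGACG, and the shares were not matched on CpG content. These letters describe the windows and do not show binding.

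All values below are normalised counts, that is, gene-level read estimates divided by a size factor per library. Totals were 31106330 to 32106791 per mouse, which does not give the sequencing depth, and precision was therefore taken from the spread between mice. Arid1b itself was lower in HT, at 1894 ± 86.6 (SD, n = 5) against 2842 ± 142 (SD, n = 5) in WT, without overlap (log2 fold change -0.59, SE 0.05, limma adjusted p = 9.96e-05). Mitochondrial transcripts made up 8.43% of the total in HT2 and 5.15% to 6.76% in the other 9 mice. The cortical markers Slc17a7 and Tbr1 were at 3032 or more in every library. Striatal markers were present as well, with Drd1 between 237 and 801. Summed astrocyte markers (16 genes) ranged from 206991 to 265854 in HT and from 187995 to 221024 in WT, and summed microglia markers (14 genes) from 13886 to 19761 and from 13621 to 15487. In bulk tissue, fewer cells of a type and less RNA per cell cannot be told apart.

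Expressed per kb of exonic length, the levels of the 10 genes covered a wide range and kept much of their order from mouse to mouse. Egr1 was highest, at 1162 ± 198 normalised counts per kb (SD over the 10 mice), followed by Egr3 at 841 ± 81.1 per kb. Nr4a1 (410.3 ± 37.5 per kb), Arc (409 ± 73.0 per kb) and Egr4 (406 ± 49.5 per kb) came next and were not separated, since Nr4a1 was above Arc in 4 of 10 mice and Arc above Egr4 in 5 of 10. Junb followed at 342 ± 58.3 per kb, Fos at 209.8 ± 43.9, Npas4 at 140.1 ± 27.5, Egr2 at 56.8 ± 11.2 and Fosb at 36.5 ± 10.3 per kb. Fos exceeded Npas4 in 9 of 10 mice, and the remaining neighbours kept their order in 10 of 10 mice. The ranges over mice of Egr1 and Egr3, of Egr4 and Junb, of Fos and Npas4 and of Egr2 and Fosb nonetheless overlapped. The exonic length is the union of annotated exons, so the per-kb level of a gene with a short main isoform is too low.

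None of the 10 genes differed between HT and WT at an adjusted p under 0.05. The threshold was passed by 3 of the 16781 genes tested (0.0179%). At an unadjusted limma p under 0.05, 1 of the 10 genes (Arc) was lower in HT, against 4.52% of all genes in that direction, and 0 were higher, against 4.71%. Taking both directions, 1 of 10 compares with 9.23% of all genes. By the exact permutation test over the 10 mice, the lowest p of the 10 genes was 0.0635 (Arc), with an adjusted p of 0.583. The estimate was higher in HT for 5 genes and lower for 5, with a median log2 fold change of -0.02 against 0.00 over all genes. For 0 of the 10 genes were the HT and WT values without overlap, against 1.62% of all genes.

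**Figure D1:**
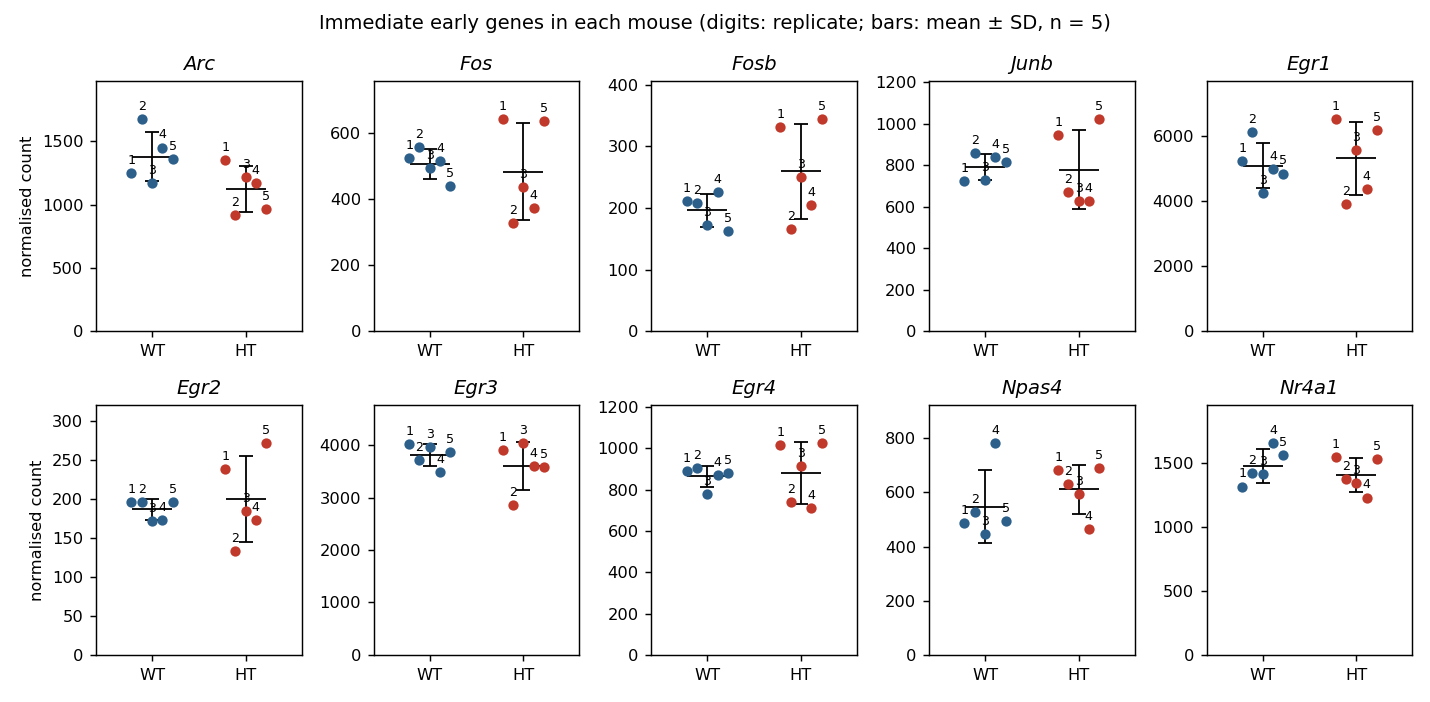
Normalised count (y axis, linear, from 0) of each immediate early gene in the 5 WT and 5 HT mice. Each point is 1 mouse and the digit above it is the replicate number, and the bars give the mean ± SD of a group. The groups overlap in all 10 panels, and HT1 and HT5 are above every WT point for 6 genes (Fos, Fosb, Junb, Egr1, Egr2 and Egr4).

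Arc (ENSMUSG00000022602, chromosome 15, 74669083 to 74672570, minus strand) had values of 1349.8, 919, 1214, 1167 and 962 in HT1 to HT5. In WT1 to WT5 they were 1248, 1674, 1167, 1450.1 and 1356. All 5 HT values were below the WT mean, 2 of them (HT2 and HT5) below every WT value, and the groups overlapped. The mean was 1123 ± 179.6 in HT (SD, n = 5) and 1379 ± 196 in WT (SD, n = 5), so that HT mice had 81.4% of the WT level. The log2 fold change was -0.30 (SE 0.11, 95% confidence interval -0.54 to -0.06), with an unadjusted limma p of 0.0188, a limma adjusted p of 0.494 and an exact two-sided permutation p of 0.0635. It stayed between -0.37 and -0.23 in 20 of 20 alternative settings, with adjusted p values of 0.359 or more. The settings on the filter, the variance trend, the replicate number as a block and exact permutation cannot move this estimate.

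The AP-1 subunits gave estimates of both signs. Fosb, which encodes a Fos-family partner of Jun proteins (ENSMUSG00000003545, chromosome 7, 19302696 to 19310051, minus strand), was at 331, 166, 251, 205 and 344 in HT1 to HT5. The WT1 to WT5 values were 211, 208, 173, 226 and 163. HT1, HT3 and HT5 lay above the whole WT range, while HT2 was close to its lowest value. The log2 fold change of 0.36 (SE 0.18, 95% confidence interval -0.04 to 0.75) did not pass the threshold (limma adjusted p = 0.557).

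Fos, the partner most often used as an activity marker (ENSMUSG00000021250, chromosome 12, 85473890 to 85477273, plus strand), was at 640.2, 325, 435, 373 and 633 in HT1 to HT5. In WT1 to WT5 it was at 524, 557, 492, 515 and 438. HT1 and HT5 were above all WT mice and HT2, HT3 and HT4 below all of them, so no HT value lay inside the WT range. The means were 481 ± 147 in HT (SD, n = 5) and 505 ± 44.3 in WT (SD, n = 5), and the log2 fold change was estimated at -0.12 (SE 0.17, limma adjusted p = 0.827). Without HT2 the log2 fold change was 0.01.

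Junb (ENSMUSG00000052837, chromosome 8, 84974484 to 84978718, minus strand), an AP-1 subunit of the Jun family, followed the same arrangement. It was at 948, 669, 630.0, 627 and 1023 in HT1 to HT5 and at 724, 861, 729, 839 and 817 in WT1 to WT5. Again HT1 and HT5 were above and the other HT mice below the whole WT range. The log2 fold change was -0.06 (SE 0.13, limma adjusted p = 0.903; 0.01 without HT3 or without HT4), and the gene overlaps Prdx2 on the opposite strand.

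The 4 EGR genes encode zinc-finger factors that bind GC-rich elements. Egr1 (ENSMUSG00000038418) was at 6524, 3917, 5576, 4384 and 6197 in HT1 to HT5 and at 5235, 6135, 4257, 5005 and 4853 in WT1 to WT5. HT1 and HT5 were the highest and HT2 the lowest, and the log2 estimate was 0.04 (SE 0.13, limma adjusted p = 0.926), which turned to -0.04 without HT1 and to -0.02 without HT5 or without WT3. Egr2 (ENSMUSG00000037868, chromosome 10, 67535475 to 67542188, plus strand) was at 238, 133, 185, 172 and 271 in HT1 to HT5, whereas the 5 WT values lay between 172 and 196. Its highest HT value was 2.04 times its lowest, against 1.14 times in WT, and the log2 fold change was 0.06 (SE 0.16, limma adjusted p = 0.917), with -0.06 without HT5 and -0.01 without HT1. Egr4 (ENSMUSG00000071341, chromosome 6, 85511121 to 85513589, minus strand) was at 1017, 739, 916, 710.0 and 1027 in HT1 to HT5 and between 777 and 905 in WT. As for Fos and Junb, each HT value of Egr4 lay outside the WT range, 3 above and 2 below, and the log2 fold change was 0.01 (SE 0.10, limma adjusted p = 0.976), and it was below 0 without HT1, HT3, HT5 or WT3 (-0.05 at the lowest). Egr3 (ENSMUSG00000033730, chromosome 14, 70077203 to 70082614, plus strand) departed from this arrangement, since HT5 was not high: the values were 3905, 2852, 4045, 3609 and 3582 in HT1 to HT5 and 3498 to 4022 in WT. The estimate for Egr3 was -0.09 on the log2 scale (SE 0.08, limma adjusted p = 0.706), and it was -0.01 without HT2.

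Npas4, a neuron-specific factor induced by calcium entry (ENSMUSG00000045903, chromosome 19, 4984355 to 4990316, minus strand), was at 681, 632, 593, 466 and 689 in HT1 to HT5 and at 487, 526, 445, 783 and 493 in WT1 to WT5. Here 4 of 5 HT values were above the WT mean, but the highest value of all was WT4. The log2 fold change was 0.18 (SE 0.14, 95% confidence interval -0.13 to 0.49, limma adjusted p = 0.683), and it was 0.32 without WT4, 0.27 without HT4 and 0.11 without WT3. Nr4a1, an orphan nuclear receptor (ENSMUSG00000023034, chromosome 15, 101254269 to 101274795, plus strand), was the steadiest of the 10 between mice of HT, at 1229.8 to 1546 in HT and 1316 to 1657 in WT. The estimate for Nr4a1 was -0.07 on the log2 scale (SE 0.08, 95% confidence interval -0.23 to 0.09, limma adjusted p = 0.767), with -0.02 without HT4 and -0.03 without WT4.

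The values above place the same mice at the ends for gene after gene. HT1 was among the 3 highest mice for 8 of the 10 genes and HT5 for 7, whereas HT2 was among the 3 lowest for 8 and HT4 for 7. The mean z-score of the 10 genes was 1.06 in HT1, 0.89 in HT5, -0.02 in HT3, -0.90 in HT4 and -1.25 in HT2. The 5 WT mice lay between -0.48 and 0.39. Thus HT mice occupied both ends and WT mice the middle. Arc departed furthest from the others in HT5, where it was 0.51 below the WT mean on the log2 scale while Fosb was 0.82, Egr2 0.54 and Junb 0.37 above it. Egr3 was also slightly below the WT mean in HT5 (-0.09 on the log2 scale).

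**Figure D2:**
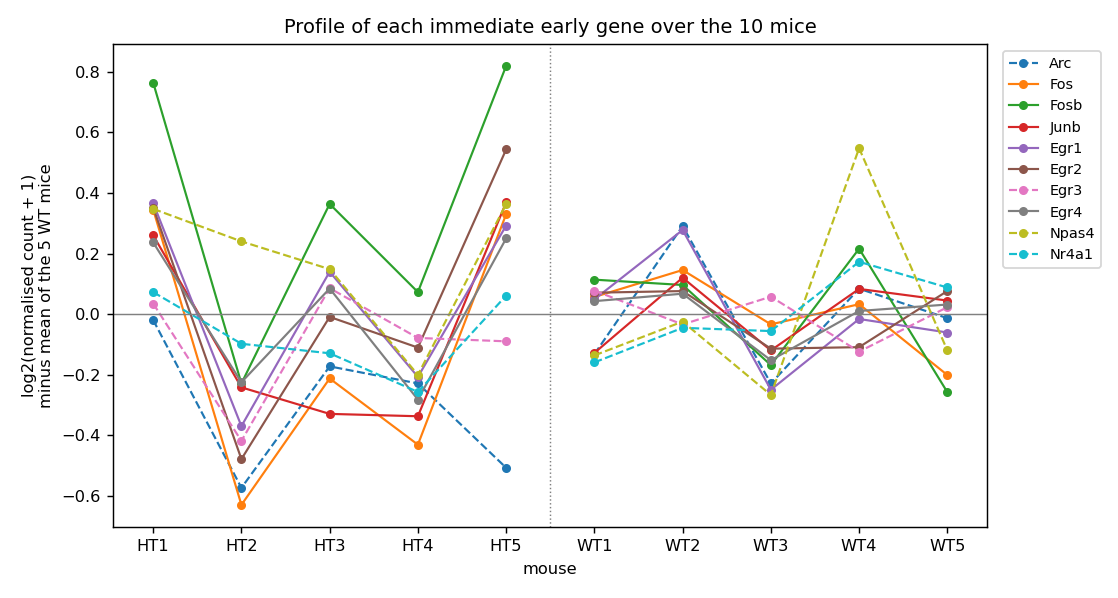
Difference of each gene in each mouse (x axis) from the mean of the 5 WT mice, as log2(normalised count + 1) (y axis). Each line is 1 gene, dashed for Arc, Egr3, Npas4 and Nr4a1. Most lines run high in HT1 and HT5 and low in HT2 and HT4. The exceptions are Arc, below the WT mean in HT1 (-0.02) and HT5 (-0.51), Egr3, below it in HT5 (-0.09), Npas4, above it in HT2 (0.24), and Fosb, above it in HT4 (0.07), and the lines stay closer to 0 in most WT mice.

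Mice at both ends differed in their markers of other cells. HT2, with the lowest mean z-score of the 10 genes, had the highest endothelial and mural score of the 10 mice (mean z-score 1.70), an astrocyte score of 1.49, a microglia score of 1.56 and the lowest excitatory neuron score (-1.19). HT5, with the second highest mean of the 10 genes, had similar astrocyte (1.27) and microglia (1.56) scores, an excitatory neuron score of -0.27 and a striatal score of -1.28. In HT1, with the highest mean of the 10 genes, the astrocyte score was -0.31 and the microglia score -0.19. HT3, whose mean of the 10 genes was -0.02, had an astrocyte score of -0.33 and a microglia score of -0.79. HT4, with the second lowest mean, had an astrocyte score of 0.38, a striatal score of 0.87 and, after HT2, the highest endothelial and mural score (0.70) and mitochondrial share (6.76%) of the 10 mice. Over the marker lists, 16 of 16 astrocyte, 14 of 14 microglia, 14 of 15 striatal, 13 of 14 oligodendrocyte-lineage, 14 of 16 endothelial and mural, 10 of 12 GABAergic, 9 of 10 olfactory bulb and 7 of 11 meningeal genes had higher estimates in HT. For excitatory neurons it was 6 of 14, and 0 genes passed the test in any list. The median log2 fold change over all genes was -0.0035. Genes of a list were measured in the same mice, so these counts are not independent, and the high astrocyte and microglia scores were those of HT2 and HT5. The part of tissue composition in the spread of the 10 genes was not tested.

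The spread between mice was larger in HT than in WT for 9 of the 10 genes, against 59.1% of all genes tested. This pattern was noticed in the values and then measured, so it is given as a description. The same HT mice lay at the ends for most of these genes, so the counts of genes are not independent. On the log2 scale the SD in HT was at least 2 times that in WT for 6 of the 10 genes (Fos, Fosb, Junb, Egr2, Egr3 and Egr4), against 16.6% of all genes tested. The median SD of the 10 genes was 0.29 in HT and 0.13 in WT, whereas over all genes it was 0.15 in HT and 0.12 in WT. The median ratio of the SDs was 2.32 for the 10 genes and 1.14 for all genes. Egr2 had the largest ratio, at 3.94 (SD 0.40 in HT and 0.10 in WT), followed by Fos at 3.42 (0.44 and 0.13), Junb at 2.94 (0.34 and 0.12) and Egr4 at 2.88 (0.25 and 0.09). Arc (1.16) and Nr4a1 (1.06) had similar SDs in both genotypes, and Npas4 (0.72) was more variable in WT. By an exact permutation test of the SD ratio, 3 of the 10 genes had p under 0.05, against 5.43% of all genes. None of the 10 passed after adjustment (lowest adjusted p = 0.825), and for Egr2 the unadjusted exact p was 0.0714.

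Leaving out HT2 lowered the count of genes with an SD at least 2 times larger in HT from 6 to 4, while the share of all genes fell to 12.0%. Without WT3 the count was 7 (20.9% of all genes) and without WT4 also 7 (23.9%), and without any other mouse it was 6.

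**Figure D3:**
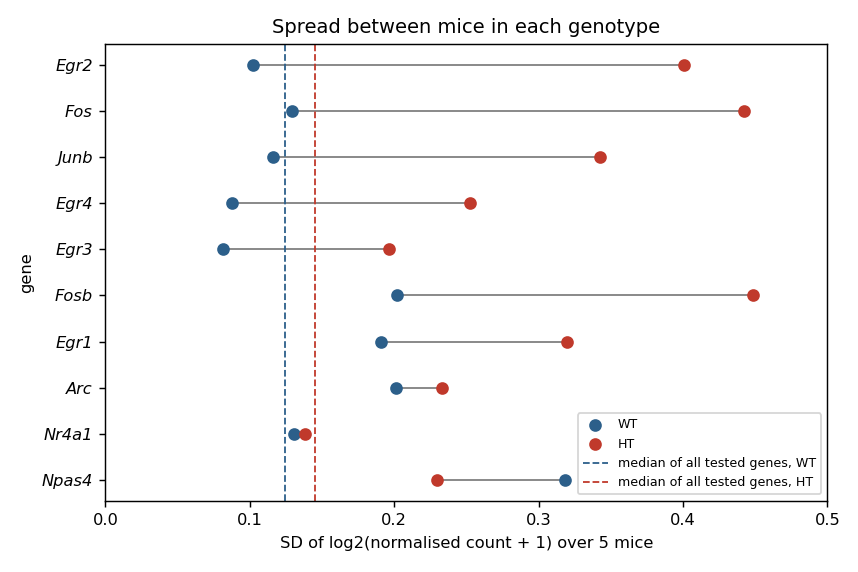
SD of log2(normalised count + 1) over the 5 mice of each genotype (x axis) for each immediate early gene (y axis), ordered by the ratio of the SDs. Blue points are WT and red points HT, and the dashed lines are the medians over all genes tested (0.12 in WT and 0.15 in HT). The red point is to the right of the blue point for 9 genes, and Npas4 is the exception.

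Most pairs of the 10 genes varied in the same direction when HT and WT mice were pooled. Of the 45 pairs, 41 had a positive Pearson r, with a median of 0.50, whereas the median r of the 10 genes with all other genes was 0.01. An r of at least 0.8 was found for 8 of the 45 pairs (17.8%), against 0.885% of the pairs formed by 1 of these genes with any other gene. At an unadjusted two-sided permutation p under 0.05 there were 15 pairs (33.3%), against 7.60%. Adjusted over the 167755 pairs of 1 of these genes with any gene tested, 0 pairs passed (0.0%), and no single pair is called. The smallest p that these permutations allow is 1e-05, and a lone pair at that p cannot pass adjustment over so many pairs. The count of 0 is therefore partly set by the number of permutations and of pairs, and is not evidence against any pair. The genes share their libraries and tissue pieces, and the 45 pairs are not independent of each other. The SD was larger in HT for 9 of the genes, so the HT mice weigh more in the pooled r, and no r is given within a genotype because 5 mice are too few. The pooled values therefore do not show that the genes varied together in WT mice.

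The closest pair was Egr1 with Egr4 (r = 0.92, permutation p = 0.00045, adjusted p = 0.354; Spearman rho = 0.93, permutation p = 0.00043, adjusted p = 0.757), with r = 0.87 after leaving out HT1 and HT2. Egr2 with Egr4 (r = 0.86), Fos with Egr2 (r = 0.85), Egr1 with Egr2 (r = 0.85) and Fos with Egr4 (r = 0.84) followed, with permutation p from 0.00082 to 0.00238, adjusted p from 0.371 to 0.413, rho from 0.76 to 0.85, and r from 0.65 to 0.81 without the 2 mice farthest from the median. Fos with Junb gave r = 0.83 (permutation p = 0.00299, adjusted p = 0.415; rho = 0.87, permutation p = 0.00207, adjusted p = 0.757) and 0.82 without HT2 and HT4. The 15 pairs under 0.05 all lay among Fos, Fosb, Junb, Egr1, Egr2 and Egr4, with the exception of Junb with Nr4a1 (r = 0.78, permutation p = 0.00961, adjusted p = 0.488; rho = 0.77), whose r was 0.73 without HT4 and HT5. Among those 6 genes the pair not reaching it was Fosb with Junb (r = 0.59, permutation p = 0.0775, adjusted p = 0.702; rho = 0.47), which went to -0.15 without HT1 and HT5 and rests on those mice. Fosb with Egr2 likewise went from r = 0.79 (permutation p = 0.00673, adjusted p = 0.463; rho = 0.55) to 0.36 without HT1 and HT5. With each genotype centred on its mean, the median r of the 45 pairs was 0.52.

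Arc stood apart from the transcription factor genes, with a median r of 0.26 with the other 9. Its highest r was 0.50, with Egr3 (permutation p = 0.155, adjusted p = 0.783; rho = 0.16), and this went to 0.11 when HT2 and WT2 were left out. With Fosb (r = -0.04, rho = 0.05) and Npas4 (r = -0.08, rho = 0.12) the values of Arc were close to uncorrelated over the 10 mice (permutation p = 0.912 and 0.817, adjusted p = 0.991 and 0.980). Centred on the genotype means, the r of Arc was 0.38 with Fosb, 0.17 with Npas4 and 0.60 with Egr1, against 0.42 with Egr1 uncentred (rho = 0.39, permutation p = 0.231, adjusted p = 0.831), whose r was -0.12 without HT2 and WT2. Egr3 had a median r of 0.43, Nr4a1 of 0.38 and Npas4 of 0.38 with the others, against 0.77 for Egr4 and 0.77 for Egr2. The lowest of all pairs was Egr3 with Npas4 (r = -0.39, permutation p = 0.279, adjusted p = 0.854; rho = -0.49, permutation p = 0.155, adjusted p = 0.960), and r was -0.18 without HT2 and WT4.

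**Figure D4:**
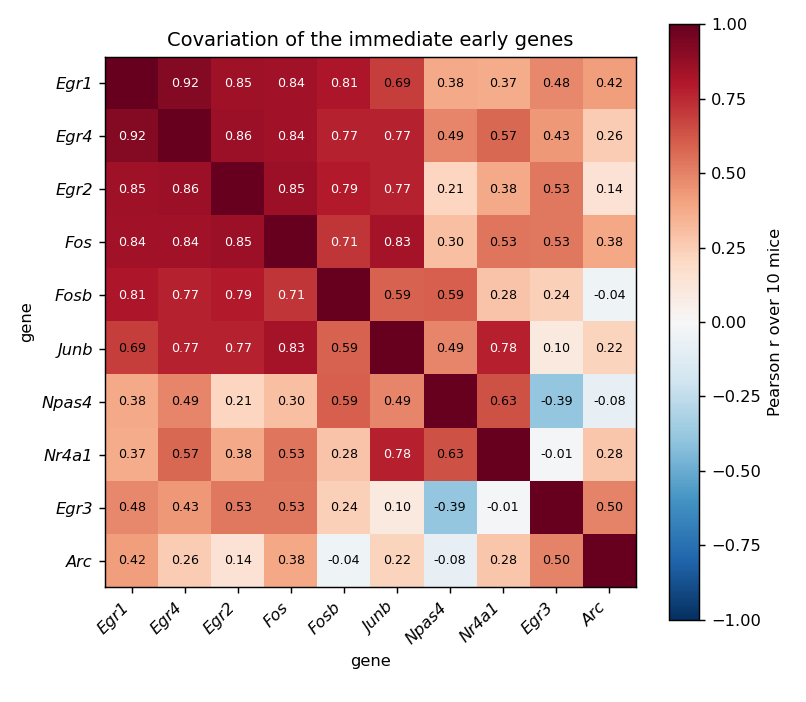
Pearson r of log2(normalised count + 1) over the 10 mice for each pair of immediate early genes (x and y axes), with the colour running from -1 (blue) to 1 (red). Egr1, Egr4, Egr2, Fos, Fosb and Junb form the red block at the upper left (r between 0.59 and 0.92), and the rows of Npas4, Nr4a1, Egr3 and Arc are paler, with r as low as -0.39 for Egr3 with Npas4.

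Among all genes outside the 10, those with a mean of at least 50 whose pattern over the 10 mice was most like the mean z-score of the 10 genes were Pxk (r = 0.97), Mcat (r = 0.93), Ccn2 (r = 0.90), Dnajb1 (r = 0.89) and Irf2bp1 (r = 0.89). Those most like Arc were a different set, namely Arl13b (r = 0.94), Ranbp6 (r = 0.94), Phtf2 (r = 0.92), Cnnm4 (r = 0.92) and Gpr176 (r = 0.92). These are the highest of all genes tested and are given as a description over 10 mice that share the same libraries.

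The r of Fos with Fosb was 0.71 over the 10 mice and 0.96 after centring on the genotype means, so the genes were offset between genotypes, and the ratio of Fos to Fosb within a mouse gives that offset. The pair was picked from these values, so the ratio is a description. Fos was 1.93, 1.96, 1.73, 1.82 and 1.84 times Fosb in HT1 to HT5 and 2.48, 2.67, 2.83, 2.27 and 2.68 times in WT1 to WT5. The HT and WT ratios did not overlap, although each of the genes overlapped between genotypes. HT1 and HT5, with high values of both genes, and HT2 and HT4, with low values of Fos, had nearly the same ratio. The log2 ratio was 0.89 ± 0.07 in HT (SD, n = 5) and 1.37 ± 0.12 in WT (SD, n = 5). The difference was -0.48 (SE 0.13). Over the 167755 ratios of 1 of the 10 genes to any other gene, 0 passed a limma adjusted p under 0.05 (0.0%), ratios to Arid1b included, and the value for Fos to Fosb was 0.764. Gene-level values do not separate the full-length from the truncated (delta-FosB) transcript of Fosb.

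The ratio of Arc to Fosb did not overlap either. It was 4.07, 5.52, 4.83, 5.68 and 2.79 in HT1 to HT5 and 5.90, 8.01, 6.71, 6.39 and 8.29 in WT1 to WT5, with a log2 difference of -0.66 (SE 0.20, limma adjusted p = 0.764). HT4 and WT1, the nearest mice, were close to each other. These were 2 of the 45 ratios between the 10 genes (Fos to Fosb and Arc to Fosb), against 0.563% of the ratios of these genes to all others, and both have Fosb as the denominator. That share was not matched on covariation: the median r was 0.50 among the 10 genes and 0.01 with other genes. Arc and Fosb also had log2 estimates of opposite sign (-0.30 and 0.36), which their ratio combines.

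**Figure D5:**
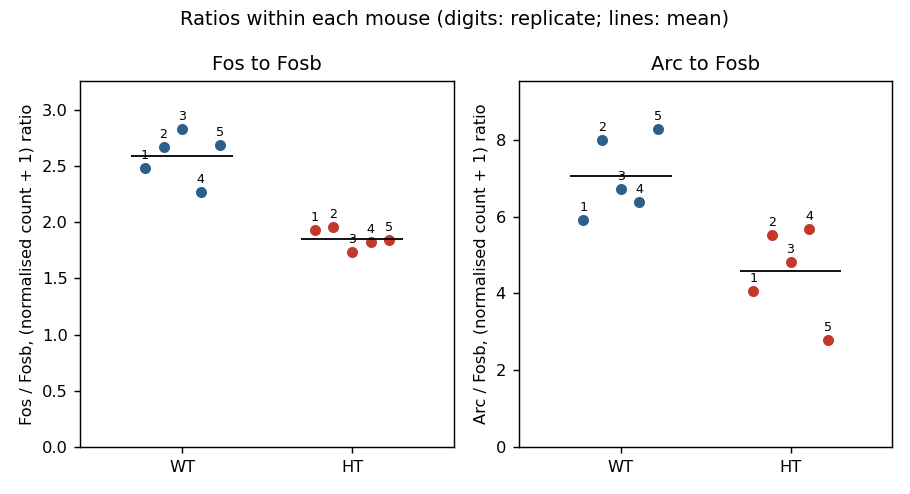
Ratio of Fos to Fosb and of Arc to Fosb within each mouse, from normalised count + 1 (y axes, linear, from 0). Each point is 1 mouse with its replicate number and the lines are group means. All 5 HT mice are below all 5 WT mice for both ratios, with Fos to Fosb between 1.73 and 1.96 in HT and between 2.27 and 2.83 in WT.

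The other genes of the activity response were read from 5 lists, and 0 genes of any list passed the threshold. Of 37 other rapid activity-induced genes tested, 2 were higher and 2 lower at an unadjusted p under 0.05, with a median log2 fold change of 0.01. The shares over all genes at that threshold were 4.71% higher and 4.52% lower, and hold as the background for each list. Jun, the AP-1 partner of Fos proteins, was lower in HT, at 1150.4 ± 70.7 (SD, n = 5) against 1326 ± 47.7 (SD, n = 5), without overlap between 1086 to 1228 in HT and 1270 to 1394 in WT. The estimate for Jun was -0.21 on the log2 scale (SE 0.05, limma adjusted p = 0.389). Trib1, a pseudokinase gene, had an estimate of -0.17 (limma adjusted p = 0.510). Ccn1, a secreted matrix protein gene, was at 152 ± 62.8 in HT (SD, n = 5) and 92.6 ± 15.0 in WT (SD, n = 5), and the log2 estimate was 0.64 (SE 0.21, limma adjusted p = 0.477). Sgk1, a kinase gene also induced by glucocorticoids, had an estimate of 0.20 (SE 0.07, limma adjusted p = 0.477). Fosl1 was not tested.

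Of 25 late activity-induced effector genes, 0 were higher and 2 lower at an unadjusted p under 0.05, with a median of -0.03. These were Gpr3, a receptor gene (log2 fold change -0.37, SE 0.14, limma adjusted p = 0.496), and Bdnf, the neurotrophin gene (573 ± 78.4 against 658 ± 64.0, SD, n = 5 each, log2 fold change -0.20, SE 0.09, limma adjusted p = 0.541). On the other side, Scg2, a granin gene, had an estimate of 0.14 and Plat, the tissue plasminogen activator gene, of 0.11 (limma adjusted p = 0.550 and 0.568).

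Among 36 kinases and transcription factors upstream of the immediate early genes, 4 were higher and 0 lower at an unadjusted p under 0.05, against 4.71% higher and 4.52% lower over all genes, with a median of -0.02. The lowest p values were those of Ep300, a coactivator of CREB (log2 fold change 0.16, SE 0.05, limma adjusted p = 0.477), and Rps6ka1, a kinase of the ERK pathway (0.20, SE 0.08, limma adjusted p = 0.508). Camk2d and Mef2c, a kinase of the calcium pathway and an activity-regulated transcription factor, had estimates of -0.12 and -0.13 (limma adjusted p = 0.590 for both). Of 16 repressors and partners of EGR and AP-1 factors, 0 were higher and 1 (Jun) lower, with a median of -0.01. Atf4, a stress-response factor of the same leucine zipper family, was at 2511 to 2589 in HT and 2619 to 2750.1 in WT, without overlap, but with a log2 fold change of only -0.08 (limma adjusted p = 0.542). Rxrg, a retinoid receptor gene, had an estimate of 0.58 (limma adjusted p = 0.716), and Batf3 was not tested.

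Of 21 postsynaptic partners of Arc in AMPA receptor endocytosis, 1 was higher and 0 lower at an unadjusted p under 0.05. The median log2 fold change was -0.04, but -0.01 both without HT2 and under quantile normalisation. The gene under 0.05 was Sh3gl3, which encodes endophilin-A3, a binding partner of Arc, at 962 to 1073 in HT and 822 to 942 in WT (log2 fold change 0.18, SE 0.05, limma adjusted p = 0.456). Dnm2, encoding dynamin, had an estimate of 0.08, and Ap2m1, encoding a subunit of the AP-2 clathrin adaptor, of -0.09 (limma adjusted p = 0.678 and 0.623).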

How the data were processed

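RNA from prefrontal cortex was measured in 5 HT and 5 WT mice, with groups read from the titles. Per the authors, stranded poly-A libraries were quantified with Salmon 1.1.0 on GRCm38 with GC-bias correction, summed to genes with tximport and divided by size factors with DESeq2 1.30.1. What the authors deposited is thus a size-factor normalised signal (here, normalised count), relative to the other genes of a library. Only 18.9% to 37.8% of low values were whole multiples of 1 step (tolerance 0.1), so whole reads could not be recovered. Depth is unknown, and a count test was not used.

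Gene symbols, positions and exonic lengths came from GENCODE M21, which held 18205 of 18216 identifiers. On log2(value + 1), limma 3.58.1 (R 4.3.3, lmFit and eBayes with trend, genotype only) was run for 16781 genes whose mean was 10 or more ( Benjamini-Hochberg adjustment, threshold 0.05). Correlations used 100000 permutations. Exact tests used every assignment of 5 of 10 mice. The fit was tested on simulated data. Other steps ran in Python 3.11.15 (numpy 2.4.6, pandas 2.3.3).

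The 10 genes and all lists were chosen with earlier results of these data known. Genes named were Arid1b, the 10 genes, in each pathway list the 2 genes with the smallest p in each direction and a mean of at least 50, and the 5 genes most like the mean z-score of the 10 and most like Arc. Some genes that this rule picks are not reported here. The SD comparison and the ratios were added after the data were seen. A z-score per list and mouse was the mean over its genes of the deviation from the mean of the 10 mice in SD units. Replicate numbers 1 to 5 belong to different mice and batches are not given in the labels. Nothing states which mice were littermates, so p-values measure the spread between these mice.

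The settings varied were the pseudocount (0.5 and 10), the filter (none, and a mean of 50), upper-quartile and quantile scaling, the trend, sample weights, a replicate block, exact permutation, and each mouse left out. RefSeq promoter windows on GRCm38.p6 were searched on both strands.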

Additional observations from a re-analysis of the deposited data

Results flagged for a closer look

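Dixon's test of the highest and the lowest value was applied to 22 groups of 5 values (the 10 genes and their mean z-score, each in HT and in WT), of which chance alone marks about 1 in 20. For Egr4, WT3 was the lowest WT mouse at 777 normalised counts, and the gap to the nearest WT mouse was 0.725 of the WT range. For Npas4, WT4 was the highest WT mouse at 783 normalised counts, with a gap of 0.759 of the WT range. WT3 also had the lowest oligodendrocyte-lineage score of the 10 mice (-2.12), and WT4 had the highest olfactory bulb score (1.28). Whether either value moves with those scores was not tested.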

How the results depend on the processing

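Of 200 alternatives for the 10 genes (20 each), 50 return the same fold change by construction (filters, trend, block and exact permutation). Of the other 150, 138 had the same sign. None of the 200 brought a gene past the threshold, and the lowest limma adjusted p was 0.359 (Arc). The 12 with the opposite sign all came from leaving out 1 mouse, and all were near 0. The log2 fold change then ranged from -0.24 to 0.01 for Fos (0.0079 without HT2), from -0.16 to 0.014 for Junb (above 0 without HT3 or HT4), from -0.036 to 0.15 for Egr1 (below 0 without HT1, HT5 or WT3), from -0.062 to 0.19 for Egr2 (below 0 without HT1 or HT5) and from -0.046 to 0.086 for Egr4 (below 0 without HT1, HT3, HT5 or WT3). Arc ranged from -0.37 to -0.23, Fosb from 0.24 to 0.50, Npas4 from 0.11 to 0.32, Egr3 from -0.14 to -0.01 and Nr4a1 from -0.11 to -0.02. The Fos to Fosb difference ranged from -0.52 to -0.44 and that of Arc to Fosb from -0.75 to -0.49, with adjusted p values of 0.383 or more. The count of genes with an SD at least 2 times larger in HT ranged from 4 (without HT2, 12.0% of all genes) to 7 (without WT3 or WT4, 20.9% and 23.9%). The median log2 fold changes of the 5 pathway lists lay between -0.06 and 0.03 in all settings run, and those of 4 lists (all but the partners of Arc) took both signs. The median r of the 45 pairs stayed between 0.47 and 0.60.

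Deviations of same-numbered mice correlated between -0.04 and 0.10 (mean 0.04, against -0.01 for other pairs). Whether the replicate numbers mark pairs of mice, such as littermates, cannot be told from these values. With the number as a block, Arc had a log2 fold change of -0.30 (limma adjusted p = 0.527), 0 of the 10 genes passed, and the 3 genes called in all were the same 3 as without it. For Arid1b (log2 fold change -0.59) exact permutation gave the smallest p that 5 against 5 mice allow, 0.00794, and an adjusted p of 0.490. No gene can have a smaller p in that test, so the lost call says nothing about Arid1b. The depth of the libraries is unknown, so small differences of low genes such as Fosb and Egr2 are limited by the spread of 5 mice.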
